A study of Drosophila melanogaster with 150 samples.

Results

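Two-level probe sets are taken here as probe sets of an expression array whose signal varies mostly between a low and a high class of arrays. The 131 described here, of 18769 probe sets on the array (0.698%), split the 150 arrays into classes of similar size. For each probe set the 150 values were sorted and divided at the point, with at least 20 arrays on either side, that left the least variance within the classes. Members had an SD over 0.3, a between-class share of the variance over 0.75 and 51 to 99 arrays in the low class. Metallothioneins, glutathione transferases, ribosomal proteins and several other gene families were left out by symbol, which removed 8 probe sets. The signal values themselves chose the members, so their levels, classes and gaps are given as descriptions without tests.

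The arrays measured whole adult males of Drosophila melanogaster from 75 roo recombinant inbred lines, with 1 array labelled lead and 1 labelled control per line. Lead food held 250 uM lead acetate and control food held 250 uM sodium acetate. On either food, 20 males and 20 females laid eggs for 3 days at 25 degrees C on 10 ml, and each array holds RNA of 50 mg of flies from a pool of 65 sons aged 5 to 10 days. The males of an array shared a vial, so vial and array cannot be told apart. Values are on a log2 scale as inferred from their range, and a fold change below is a fold change under that reading. In whole flies, fewer cells of a type and less RNA per cell cannot be told apart.

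Inbreeding after a cross fixes in each recombinant inbred line a mosaic of chromosome segments from the parents. Genes close together on a chromosome therefore usually keep the alleles of the same parent within a line, and lines differ in where the segments change. Metallothioneins bind metal ions through their many cysteines and are induced by metal in the food through the transcription factor MTF-1. MtnB, a metallothionein that the rule leaves out of the members, serves below as the yardstick for how the array-to-array variation of each member runs.

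The arrays did not sort by their labels in MtnB, and every group below is a group by its label. MtnB was in its high class on 40 of the 75 arrays labelled lead and on 36 of the 75 labelled control. Its mean was 12.82 in the high class and 6.45 in the low class, and no array lay between 8.99 and 11.02. Arrays that carry the same line label were also little closer over the 121 members that do not follow MtnB than arrays of different lines (52.3% against 51.0% of classes shared), as described further down. Whether each column of values carries the label of its own sample could not be settled from the files, and every value given by diet or by line holds only if it does. Array medians lay between 5.29 and 5.55, and each array had a median correlation of at least 0.954 with the rest.

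Of the 131 members, 108 had 1 gene symbol, 8 had several and 15 had none in the platform annotation. The 108 stand for 107 genes, since CG34367 had 2 member probe sets. Of all 18769 probe sets, 271 had a between-class share over 0.75 at any class size (1.44%). With the SD minimum there were 269, of which 109 had more and 21 had fewer low arrays than the range, and 139 were balanced. The balanced ones left out by symbol were MtnB, MtnC, MtnD, GstD3, GstE5, GstE11, GstZ1 and Obp69a.

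The 4 probe sets that mark the group are those of CG11598, Atat, CG13884 and Caf1-55. CG11598 belongs to the acid lipase family, which releases fatty acids from lipids. On the arrays labelled lead its signal ran from 3.91 to 10.50 with a median of 9.26, and on the arrays labelled control from 3.72 to 10.61 with a median of 9.25. Both labels spanned the whole range. The high class held 95 arrays at a mean of 9.62 and the low class 55 arrays at 4.71, a difference of 4.91 or 30.1-fold and the largest among the members. The between-class share was 0.944.

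Atat encodes an alpha-tubulin acetyltransferase, which acetylates microtubules. It ran from 3.92 to 7.82 with a median of 7.27 on arrays labelled lead, and from 4.26 to 7.84 with a median of 5.60 on arrays labelled control. The medians lie apart because 48 arrays labelled lead and 35 labelled control were in the high class, while the class levels overlap between the labels. Class means were 7.40 on 83 high arrays and 4.91 on 67 low arrays, with a share of 0.929.

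CG13884 ran from 2.69 to 7.40 on arrays labelled lead (median 4.97) and from 2.62 to 7.10 on arrays labelled control (median 3.20). Its high class held 74 arrays at a mean of 6.21 and its low class 76 arrays at 3.03, with 10 arrays in the third of the range that lies midway between the means. Caf1-55 encodes a histone-binding protein shared by chromatin assembly, nucleosome remodelling and Polycomb complexes. Its range was 4.67 to 8.74 on arrays labelled lead (median 7.07) and 4.50 to 8.40 on arrays labelled control (median 7.33). The class means of Caf1-55 were 7.46 on 92 high arrays and 5.20 on 58 low arrays, and its gap was narrow at 0.036.

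**Figure D1:**
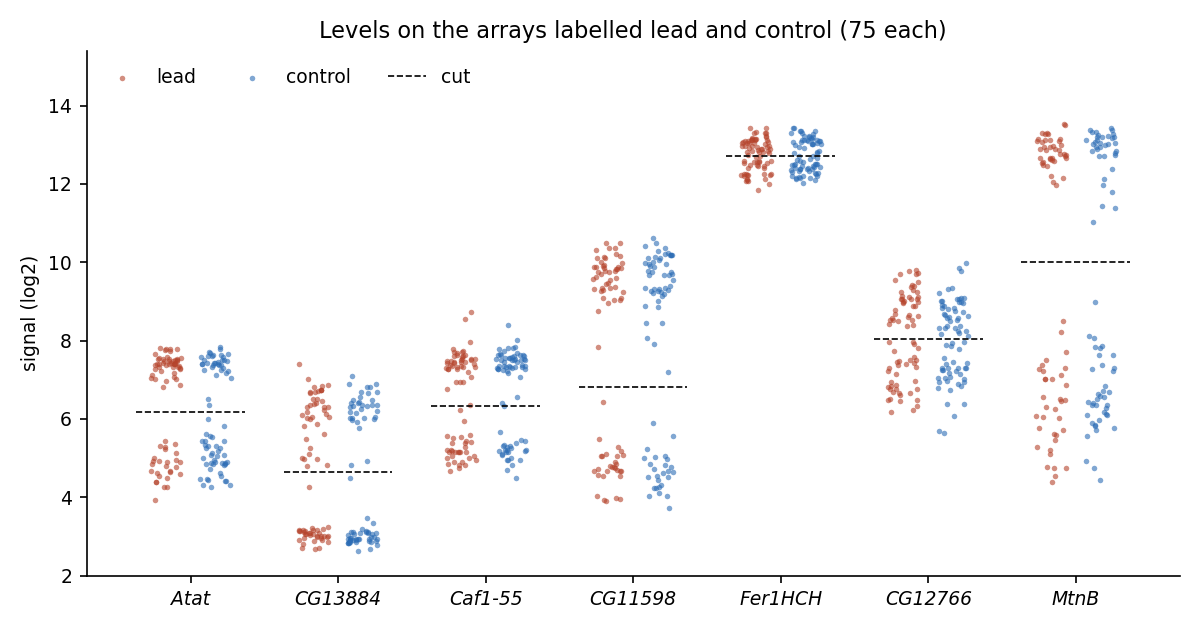
Signal (log2) of the 4 marking genes, 2 members that follow MtnB, and MtnB on each array, a point per array, with the 75 arrays labelled lead left of the 75 labelled control. The dashed line is the cut between the classes. Both labels hold arrays in both classes of every gene, and CG11598 and MtnB leave wide gaps where Fer1HCH and CG12766 leave narrow ones.

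The separation of the classes varied widely among members. CG10177 had the highest share, 0.971, with 52 high arrays at a mean of 7.72, 98 low arrays at 3.37 and a gap of 2.00. A share of 0.75 is what values spread evenly between 2 ends would give, so members near the threshold need not have 2 separate levels. Such an even spread would put 25 of 150 arrays into the third of the range that lies midway between the class means. The members had a median of 15 arrays there, with 5 or fewer in 8 members and 25 or more in 3.

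At the share threshold, CG6527 (0.7506), TTLL15 (0.7523) and mus301 (0.7524) lay just inside, and CG12112 (0.7496), CG44006 (0.7491) and Peritrophin-15b (0.7488) just outside. At the SD threshold, CG4338 (SD 0.301), hfw (0.302) and CG13926 (0.310) lay just inside, and no balanced two-level probe set had an SD between 0.2 and 0.3. CG14877, Pcd and CG9643 were nearest the lower limit of class size with 53, 54 and 54 low arrays, and CG14125, CG14352 and SelG lay outside with 50, 47 and 47. CG30411, CG13078 and 2mit were nearest the upper limit with 99, 99 and 98 low arrays, and CG2772, Rat1 and CG42565 lay outside with 100, 101 and 101.

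The 2-class pattern was also read on arrays that had not set the cut. The cut found on the arrays labelled control left a between-class share over 0.75 on the arrays labelled lead in 113 of the 131 members. In the other direction 119 members stayed over 0.75. Over both directions the lowest share was 0.704 and the highest 0.972. The members had been chosen on all 150 arrays, so neither set of arrays is independent of the rule.

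A member was taken to follow MtnB where its Pearson correlation with MtnB over the 150 arrays was 0.5 or more in size. This held for 10 of the 131 members, against 2.23% of the 18768 other probe sets. The arrays share lines and labels, so the correlations are descriptions. The split left a wide space between the groups: CG11878 had the lowest correlation among followers, 0.67, and CG31832 the highest among the rest, 0.32. UGP at 0.28 and TTLL15 at -0.24 came next. Of the 121 members that did not follow MtnB, 88 had a correlation under 0.1 in size, and the median size was 0.07, against 0.13 over all probe sets.

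**Figure D2:**
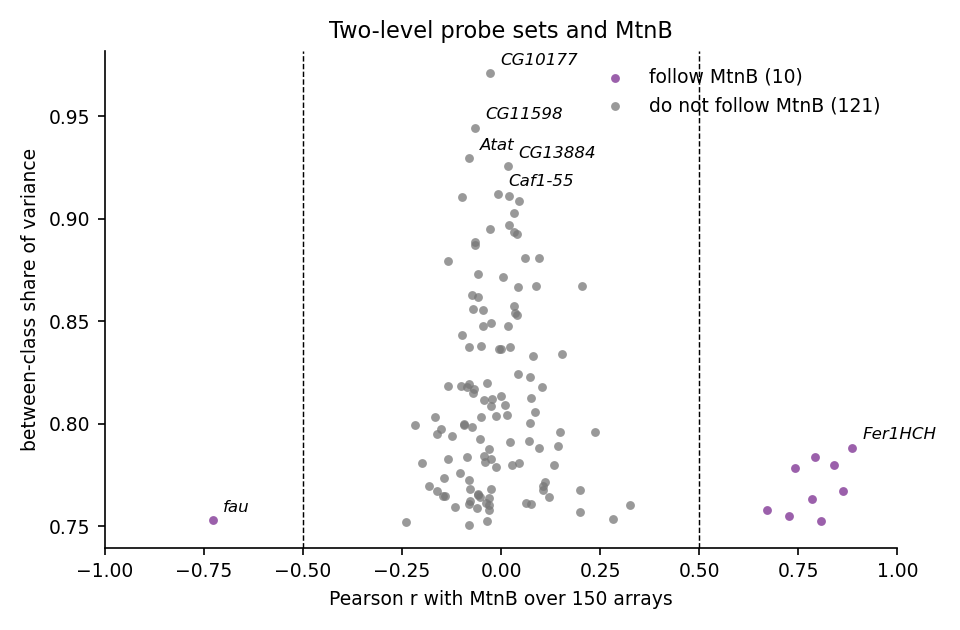
Between-class share of the variance against the Pearson correlation with MtnB over 150 arrays, a point per member. The 10 followers lie beyond the dashed lines at 0.5 in size with shares up to 0.788, and the 121 others lie within 0.33 of 0 with shares up to 0.971.

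Fer1HCH and Fer2LCH were the followers closest to MtnB. They encode the heavy and light chains of secreted ferritin, the iron storage protein of the fly, and lie side by side on chromosome arm 3R. On the 76 MtnB-high arrays Fer1HCH ran from 12.39 to 13.44 with a median of 13.09, and on the 74 MtnB-low arrays from 11.84 to 12.91 with a median of 12.40. The ranges overlapped, but 62 of the MtnB-high arrays lay above every MtnB-low array. Fer1HCH correlated with MtnB at 0.89. Fer2LCH ran from 12.10 to 13.35 on MtnB-high arrays (median 12.93) and from 11.27 to 12.71 on MtnB-low arrays (median 12.04), with a correlation of 0.86. The ferritin chains correlated with each other at 0.98 and shared their class on 96.7% of the arrays. Their differences were small beside that of MtnB, 1.61-fold and 1.79-fold between the MtnB classes.

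The other followers had larger differences than the ferritin genes, except fau. CG12766 belongs to the aldo-keto reductases, which reduce carbonyl compounds. It ran from 7.26 to 9.98 on MtnB-high arrays (median 8.93) and from 5.64 to 8.99 on MtnB-low arrays (median 7.16), a mean difference of 1.71 or 3.28-fold. Its class matched that of MtnB on 92.7% of the arrays. CG12171, of the short-chain dehydrogenase family, ran from 7.57 to 10.17 on MtnB-high arrays (median 9.37) and from 7.18 to 9.01 on MtnB-low arrays (median 7.99), 2.41-fold.

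Ugt302E1, a UDP-glycosyltransferase that couples sugars to lipophilic molecules, ran from 3.78 to 8.15 on MtnB-high arrays (median 6.35) and from 3.57 to 6.84 on MtnB-low arrays (median 4.31), 3.53-fold. CG10505 is an ABC transporter of the multidrug resistance protein type. It ran from 3.48 to 7.72 on MtnB-high arrays (median 6.24) and from 3.11 to 6.73 on MtnB-low arrays (median 3.99), 3.85-fold. In both genes the MtnB-high arrays reached down nearly to the lowest level of the MtnB-low arrays, with 21 and 23 of 76 lying above every MtnB-low array.

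CG13078, of the cytochrome b561 family of membrane electron carriers, ran from 2.90 to 7.46 on MtnB-high arrays (median 4.94) and from 2.34 to 4.83 on MtnB-low arrays (median 3.04). Its own high class held 49 MtnB-high arrays and 2 MtnB-low arrays, while 27 MtnB-high arrays stayed in its low class. CG11893 and CG11878, a pair of ecdysteroid kinase-like genes 7 genes apart on 3R, departed in the other direction. CG11893 was in its high class on 68 MtnB-high arrays and on 19 MtnB-low arrays, and CG11878 on 70 and 23. Their medians were 10.75 and 8.83 on MtnB-high arrays and 8.63 and 7.27 on MtnB-low arrays.

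The follower fau ran against MtnB, at a correlation of -0.73. It ran from 8.11 to 9.58 on MtnB-high arrays (median 8.56) and from 8.25 to 9.82 on MtnB-low arrays (median 9.19), a difference of -0.59. The other 4 probe sets of fau correlated with this one at 0.06 to 0.28 and with MtnB at -0.21 to -0.06, so the pattern belongs to 1 of 5 probe sets of the gene.

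**Figure D3:**
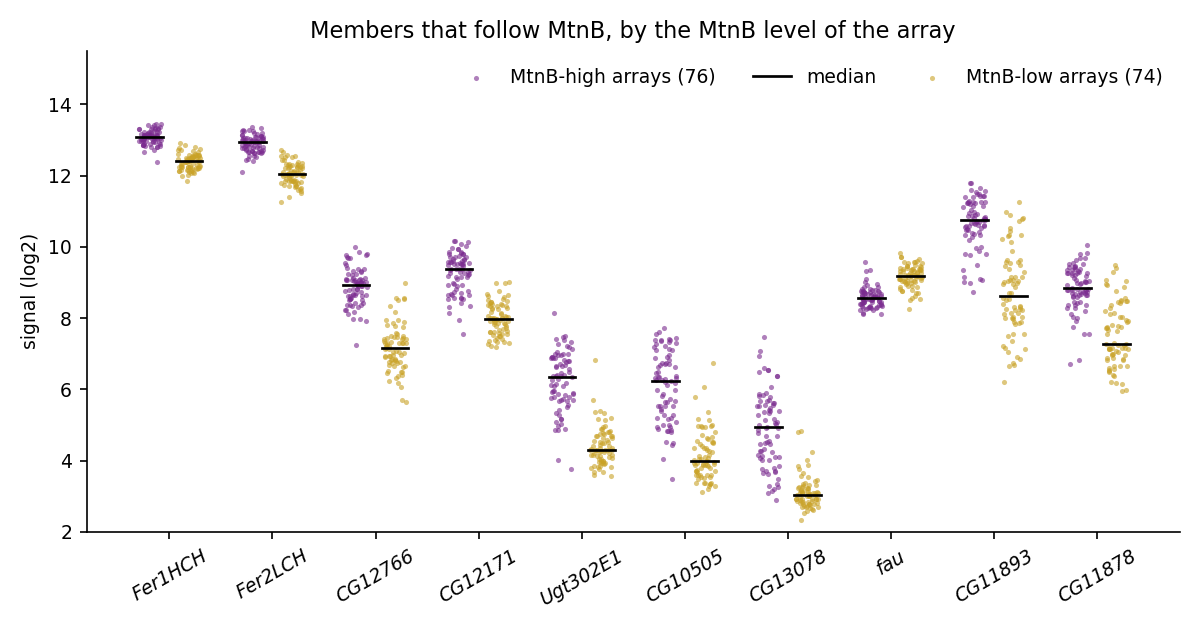
Signal (log2) of the 10 followers on the 76 MtnB-high arrays, left, and the 74 MtnB-low arrays, right, a point per array with the median as a bar. Medians are higher on MtnB-high arrays in 9 genes and lower in fau, and the ranges overlap in every gene.

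The followers varied with each other as well as with MtnB. They were chosen by their correlation with MtnB, so correlation among them is partly built in. Over their 45 pairs the correlation was 0.58 to 0.98 in size, with a median of 0.81, and the classes matched on 68.0% to 96.7% of the arrays. All 10 were in the class that matches MtnB on 78 arrays, 39 of them MtnB-high and 39 MtnB-low. Their genes lie on 4 chromosome arms, with 7 on 3R and 1 each on 3L, 2L and 2R. Among the MtnB-high arrays alone Fer1HCH still correlated with MtnB at 0.68 and Fer2LCH at 0.66, while among the MtnB-low arrays the values were 0.33 and 0.26.

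Of the balanced two-level probe sets left out by symbol, MtnD correlated with MtnB at 0.95 and MtnC at 0.89. In the list of metallothioneins and metal handling genes 8 of the 15 measured beside MtnB had a correlation of 0.5 or more in size with it. None of its 16 measured genes correlated that far with Atat, CG13884 or Caf1-55, and 1 did with CG11598, MtnA at -0.52.

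Followers and a few other members moved with measures of RNA quality and of another tissue. The 3' and 5' control probe sets of Act5C differ more as RNA is degraded. Their difference correlated with 7 of 131 members at 0.4 or more in size. Among them were the followers CG11893 at -0.50, CG12171 at -0.49, Ugt302E1 at -0.45, CG11878 at -0.44 and Fer2LCH at -0.40. Cad74A at 0.44 and qjt at 0.42, which do not follow MtnB, also reached it. The mean level of 10 measured accessory gland genes, which encode seminal fluid proteins, reached 0.4 in size with 13 members. Among these were Cad74A at 0.55, qjt at 0.46, CG5506 at -0.44 and CG6527 at 0.43, which do not follow MtnB. The level of this list ran from 10.22 to 11.55 on arrays high in Ugt302E1 (median 10.89). On arrays low in Ugt302E1 it ran from 10.24 to 11.78 (median 11.33), at a correlation of -0.56. Of the followers 9 had a correlation with that list between 0.42 and 0.56 in size, and CG13078 had -0.36. For the 4 marking genes the highest sizes were 0.14 for Act5C and 0.22 for the accessory gland list. Testis genes, 14 measured, reached 0.4 with 3 members. Eggshell and yolk genes, also 14 measured and female-specific in flies, ran as a list from 3.40 to 9.70 over these male samples and reached 0.4 with none of the members. How many of all probe sets reach 0.4 with these measures was not counted, so the counts of members have no background share beside them. The part of RNA quality and of these tissues in the members' classes was not tested.

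The 121 members that did not follow MtnB formed no single pattern. Their class means differed by 0.53 to 4.91, with a median of 1.22 or 2.33-fold, and their shares ran up to 0.971 with a median of 0.803. In 5 of them the difference was over 4: CG10177, CG11598 and the 3 probe sets of the Hsp70 genes. Under 1 it was in 35, and the low class had a mean signal under 5 in 64.

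After CG10177 and the 4 marking genes, the highest shares were those of CG3408 (0.911), CG43066 (0.910), CG32457 (0.908), CG7900 (0.903), CG34283 (0.897), IFT54 (0.895) and CG4998 (0.894). CG7900 belongs to the fatty acid amide hydrolases and IFT54 to the intraflagellar transport proteins that build cilia. CG43066 on 2R had 65 high arrays at 7.77 and 85 low arrays at 5.46, and CG32457 on 3L had 81 high arrays at 7.39 and 69 low at 3.87. Members with well known roles included sima, the fly hypoxia-inducible factor (7.37 on 57 high arrays, 6.22 on 93 low), the immune and patterning receptor Tl (3.80 on 85 high, 3.07 on 65 low), fzo, a mitochondrial fusion protein of spermatids (6.57 on 52 high, 5.50 on 98 low), and Gld, glucose dehydrogenase (9.15 on 89 high, 7.31 on 61 low). Both class means of Tl lay below 5.43, the median over probe sets of the mean signal. The other probe set of Tl had a mean of 7.03 and a share of 0.541, and correlated with the member at -0.29. The 2 levels thus belong to 1 probe set of Tl.

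The non-followers lay mostly on chromosome 3. Of the 98 with a place in the gene table, 82 lay there (83.7%), 46 on 3L and 36 on 3R, with 7 on 2L, 6 on 2R, 3 on X and 0 on chromosome 4. Of all 13543 placed probe sets 44.8% lay on chromosome 3. Probe sets of a chromosome are not independent of each other in these lines, so no test was made of the share.

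Members near each other on a chromosome arm had matching classes. For each pair of non-followers the share of arrays in matching classes was taken in the same or the opposite sense, whichever was higher, so that its lower limit is 50%. Over the 15 pairs of 1 to 20 genes apart the median was 89.3%, and over the 33 pairs of 21 to 50 genes apart 90%. It was 87.3% at 51 to 100 genes, 81.3% at 101 to 200, 76.0% at 201 to 400 and 65.3% at 401 to 800. Beyond 800 genes it was 56.7%, close to the 54.0% of the 1351 pairs on different chromosomes. No pair on different chromosomes exceeded 69.3%. The 1698 pairs on opposite arms of the same chromosome had a median of 56.0%. Of these, 107 matched on 75% or more of the arrays, and the highest share was 92.0%.

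**Figure D4:**
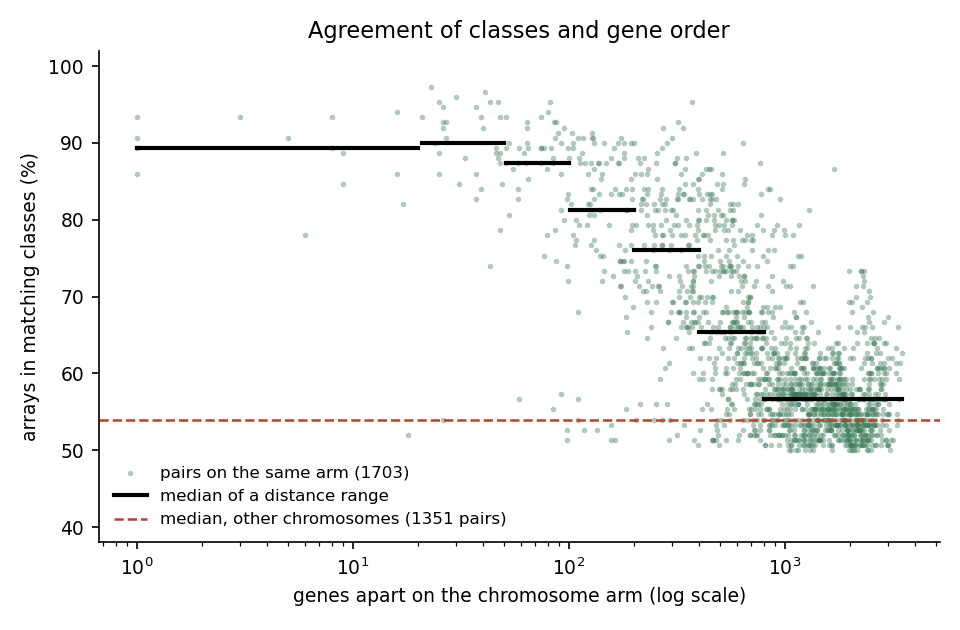
Share of the 150 arrays in matching classes (%) against the number of genes apart (log scale) for 1703 pairs of non-followers on the same chromosome arm. Black bars are medians of distance ranges, and the dashed line is the median of 54.0% for pairs on different chromosomes. Medians are 87.3% or more up to 100 genes apart and 56.7% beyond 800.

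Of the 3 probe sets closest to each marking gene, 12 in all, 11 had a place in the gene table, each on the arm of its marking gene and 16 to 175 genes away. Atat correlated with CG3408 at -0.90, with CG32036 at 0.86 and with the anion exchanger Ae2 at 0.82, which lie 26, 23 and 74 genes away on 3L. CG13884 correlated with CG13876 at 0.91, CG13895 at 0.90 and hng3 at -0.81, 39, 43 and 48 genes away on 3L. For Caf1-55 they were CG4338 at -0.81, Sdr at 0.74 and CG14877 at 0.72, which lie 16, 31 and 115 genes away on 3R. Those of CG11598 were the glutathione transferase GstD3 at 0.93, 59 genes away, CG6834 at -0.87, 175 genes away, and a probe set shared by CG44194, CG9133 and CG17327 at 0.85. Of these 12 probe sets 10 were members, and the others were Sdr with a share of 0.699 and GstD3, left out by symbol.

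Lists of related genes were compared with 3 of the marking genes. Of 28 listed partners of Caf1-55 in chromatin complexes 27 were measured, and none had a correlation of 0.5 or more in size with it. The closest was tomb at 0.27. Among 13 other genes of tubulins, of enzymes that modify them and of microtubule-binding proteins the closest to Atat was futsch at 0.20, and among 18 other acid lipase genes the closest to CG11598 was mag at -0.29.

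Members that do not follow MtnB ran in opposite senses where they lay within 5 genes of each other. Within 5 genes of each other there were 6 pairs of non-followers, and in all 6 a high level of 1 gene went with a low level of the other. They were CG2924 and CG3071 on X (93.3% of arrays), CG7408 and CG5506 on 3L (90.7%), the scavenger receptor gene Sr-CIV and CG8852 on 2L (86.0%), beat-VII and the cuticle gene TwdlD on 3R (89.3%), CG3408 and CG32036 on 3L (93.3%), and CG13895 and hng3 on 3L (90.7%). The ferritin genes, both followers, ran in the same sense. A little farther apart both senses occurred among non-followers on 3R. The genes beat-IV and CG10177, 6 genes apart, ran in opposite senses (78.0%), and Rb97D and Tl, 8 genes apart, in the same sense (93.3%).

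In 2 cases a follower lay within 5 genes of a non-follower, and their classes did not match. CG4757 lies 2 genes from the follower Ugt302E1, and their classes matched on 54.0% of the arrays, near the lower limit. Desi lies 2 genes from fau and matched on 52.0%. Over all 1210 pairs of a follower and a non-follower the median was 53.3% and the highest 70.0%.

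Some members shared their pattern with another probe set of the same gene, and others did not. For 17 member genes the array held 29 comparisons with another probe set, with a median correlation of 0.33. In 6 the correlation was 0.8 or more in size, for CG31406 (0.93), RhoGAP71E (0.86), 2mit (0.82), CG34367 (0.81, from either side) and beat-VII (0.81). In 7 it was under 0.2. Atat's other probe set correlated with the member at -0.36. The transcripts that each probe set reads were not analysed here.

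No member passed between the labelled diets, a comparison that rests on labels in doubt as described above. In limma with line as a block, 0 of 18769 probe sets passed an adjusted p under 0.05 (0%), and 0 of the members. An unadjusted p under 0.05 was reached by 490 probe sets (2.61%) and by 7 members. Atat averaged 6.46 on arrays labelled lead and 6.11 on arrays labelled control, a difference of 0.34 ± 0.21 (SE, 75 lines) with a 95% interval of -0.07 to 0.76 and a limma adjusted p of 1.00. It was higher on the array labelled lead in 42 of 75 lines. CG11598 differed by -0.10 (interval -0.83 to 0.63), CG13884 by 0.21 (-0.35 to 0.77) and Caf1-55 by -0.18 (-0.53 to 0.16).

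Among the followers the labelled difference was between -0.09 and 0.38. CG13078 averaged 4.21 on arrays labelled lead and 3.83 on arrays labelled control, a difference of 0.38 ± 0.20 (SE), and was higher on the array labelled lead in 45 of 75 lines. Fer1HCH differed by 0.02 with an interval of -0.09 to 0.14. The intervals describe the groups by label.

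No member passed for line either, under the same doubt. The moderated F-test of line in limma called 2 of 18769 probe sets (0.0107%) and 0 members. Unadjusted, 2317 probe sets (12.3%) and 13 members had a p under 0.05, and the smallest adjusted p among members was 0.23, for CG15649. Both arrays of a labelled line were in the same class of a non-follower in a median of 39 of 75 lines, where the class sizes alone give a median of 37.9. For followers the median was 43.5 lines, where class sizes give 38.3. Between lines numbered above 200 and lines numbered 1 to 100, 0 of 18769 probe sets passed in limma (0%), 683 had an unadjusted p under 0.05 (3.64%), and 6 of these were members.

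The classes of the 121 non-followers were next compared between arrays. Arrays of a labelled line shared the class of 52.3% of these members on average, with a range of 19.0% to 84.3%. Pairs of arrays from different lines shared 51.0% on average, but ranged from 4.1% to 97.5%. No array had the array of its own labelled line as its closest, and that array ranked at a median of 67 among the 149 others. Yet nearly every array had a close array elsewhere: 126 of 150 formed 63 pairs in which each was the other's closest, with 91.7% of members in the same class at the median. The median for an array's closest was 90.9% and for the next closest 81.8%. The closest array was picked among 149 by these same members, so high shares in these pairs are partly built in. The pairs of a labelled line were not picked in this way.

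Arrays in these mutually closest pairs were on opposite sides in MtnB. In 61 of the 63 pairs 1 array was MtnB-high and the other MtnB-low, where 50.3% of all pairs of arrays are opposite. Of the 75 labelled lines 30 had opposite MtnB classes. The signals of MtnB and of the members that follow it were not used to find the pairs. The members used were chosen by their low correlation with MtnB, however, so the pairs are not independent of it. From all 131 members, followers included, 40 of 51 mutually closest pairs were opposite in MtnB (78.4%). Labels were lead and control in 36 of the 63 pairs, lead on both arrays in 12 and control on both in 15. In the 34 opposite pairs with both labels, the array labelled lead was the MtnB-high one in 19 and the array labelled control in 15.

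The pairs could be found from separate chromosomes. The 82 non-followers on chromosome 3 gave 59 mutually closest pairs, and 56 of them were opposite in MtnB. In these pairs the 16 non-followers on X and chromosome 2, which had no part in finding them, shared their class at a median of 93.8%, against 50.0% over all pairs of arrays and 56.2% over the labelled lines. That share was over 75% in 56 of the 59 pairs, and its lowest value was 31.2%. From the 16 members alone, where ties left 31 unique pairs, 25 were opposite in MtnB and 21 were among those found on chromosome 3.

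**Figure D5:**
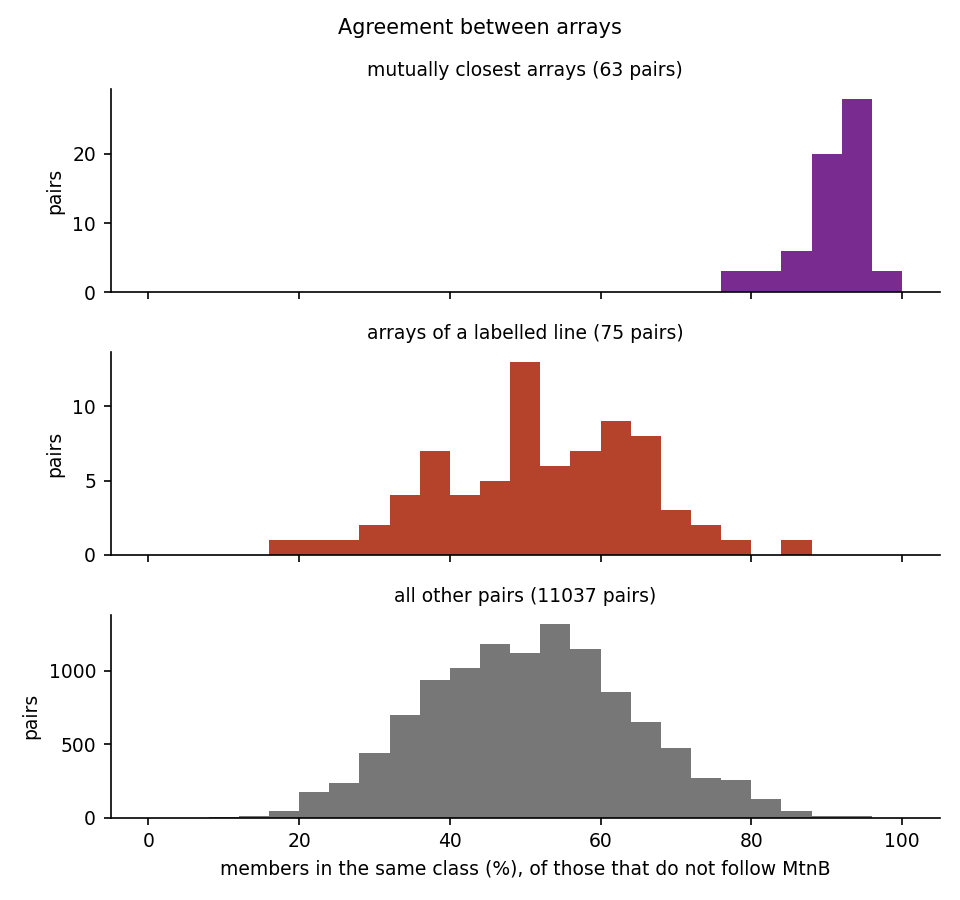
Number of array pairs by the share of the 121 non-followers in the same class (%), for 63 mutually closest pairs, 75 pairs of a labelled line and all other pairs. Mutually closest pairs lie between 76.9% and 97.5%, and the pairs of labelled lines lie between 19.0% and 84.3%, in the range of the other pairs. Mutually closest pairs were picked by this same share, so their high values are partly built in.

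Single members kept or changed their class within the pairs when the pairs were found without them and without the members most like them. Non-followers were in the same class in 94.8% of such pairs at the median, where class sizes alone give 50.6%, and 112 of the 121 were at 80% or more. CG10177 shared its class in 61 of 61 pairs, CG13884 in 55 of 56, CG11598 in 59 of 61, Caf1-55 in 58 of 60 and Atat in 56 of 58. The followers went the other way. They were chosen by their correlation with MtnB, and most of the pairs were opposite in MtnB. Their low shares therefore largely follow from that choice and are no separate result. Fer1HCH shared its class in 5 of 63 pairs (7.9%), Fer2LCH in 7 of 63 and CG12766 in 9 of 63, and the highest share among the followers was 38.7%, for CG11878.

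A small set of non-followers did not keep their class within the pairs, and 8 of the 121 were under 70%. Class sizes alone give 49.7% to 54.8% among non-followers. The heat shock genes are switched on by heat and other stress through the factor Hsf. Their 3 Hsp70 probe sets shared their class in 35.5% to 37.1% of the pairs, Hsp68 in 43.5% and the heat-inducible alphagamma-element RNA in 37.1%. These heat-inducible probe sets all lay below what class sizes give, as the followers did. The cuticle gene Acp65Aa shared its class in 51.7% of the pairs and the probe set of Acp1 and CG31904 in 55.2%. Both were close to what their class sizes give, 50.7% and 52.9%. CG31832 shared its class in 69.4%, above the 49.7% from its class sizes. Hsp68 ran from 6.85 to 12.62 on arrays labelled lead (median 8.14) and from 6.88 to 12.42 on arrays labelled control (median 7.90), and Acp65Aa from 3.28 to 10.68 on arrays labelled lead (median 7.23) and from 3.31 to 10.49 on arrays labelled control (median 7.68). With MtnB these genes correlated at 0.32 or less in size.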

How the data were processed

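The deposited table holds 1 value per probe set and array; the authors deposited the values on a log2 scale, as inferred from their range of 1.93 to 14.04, and for the summarisation, normalization and logarithm base the sources used here give nothing. There were 0 missing values, and 183 array controls were left out. The values were used unchanged. Groups and lines come from the titles, and each line number stands on 1 lead and 1 control title, which pairs the arrays by label. Names came from the platform annotation, and arms and gene order from a RefSeq gene table (Release 6 plus ISO1 MT), with no coordinates used. The members, lists and comparisons were chosen with earlier results of these data known.

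Two-level cuts, classes and correlations were computed in Python 3.11.15 with numpy 2.4.6 and pandas 2.3.3. Diet was tested within lines, line by a moderated F-test beside diet, and line number series on line means, all with limma 3.58.1 in R 4.3.3 over 18769 probe sets with Benjamini-Hochberg adjustment. P-values for diet and for line number series rest on the spread between lines, and those for line on the spread within lines. The number of arrays limits the precision. The scripts were tested on simulated data. Named genes were the 4 markers, the 8 members closest to MtnB, the 12 non-followers of highest share, probe sets beside each threshold, neighbours within 5 genes and the 3 probe sets closest to each marker. Others were named after their values were seen: the remaining followers, members with well known roles, other probe sets, the smallest line p and members that changed class within array pairs. Alternatives were other rule limits, normalizations, filters, thresholds and subsets of lines. The comparison of arrays by other sets of probe sets, and of single members within pairs, was chosen after seeing the data. Sequences were not used here.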

Additional observations from a re-analysis of the deposited data

How the results depend on the processing

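The number of members depended on the share limit: 384 at over 0.70 and 63 at over 0.80. Under the other limits, normalizations and subsets it was 97 to 179. Arrays labelled lead alone gave 143, of which 110 were among the 131, arrays labelled control alone gave 179 with 109, and leaving out the 8 lines of lowest array correlation gave 163 with 119. The same number of followers, 10, was found under all 5 alternatives tried. With or without the replicate block, 0 probe sets passed for diet. Probe sets with a line effect numbered 1 above the median of signal and in lines 1 to 100 alone, and 0 after median centring, at a threshold of 0.01, without the 8 lines and in lines above 200 alone. Of 174 values of named genes in the alternatives, none passed and 13 changed sign. The share of mutually closest pairs opposite in MtnB, 96.8%, was 80.6% from members on X and chromosome 2, 78.4% from all members and 23.1% from correlation over probe sets that are no members, which gave 26 pairs, 6 of them opposite. The cause was not tested. Low signals limit members whose low class lies near the floor of the array.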
